A study of Mus musculus with 18 samples.

Results

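The genes described here encode the proteins of the cytosolic ribosome. They were taken as all genes with a single annotated symbol of the form Rpl, Rps or Rplp followed by a number, with symbols of named pseudogenes left out and each gene read through its brightest probe set. The rule found 60 of the 19937 genes measured: 22 of the small subunit, 35 of the large subunit and 3 of the stalk. RefSeq lists 59 of them as protein coding and 1, Rps4l, as a transcribed pseudogene. In 3 cases, Rpl12, Rplp2 and Rps3a1, the probe set does not list the gene's own RefSeq transcript, so the value may come from a copy of the gene. The other probe sets do list it, among up to 16 sequences (Rps2), but this does not show that copies add nothing to their values.

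Expression was measured on 18 mouse arrays, 3 for each of 6 groups. The 2i converted cells were the line EOS3F-24 after culture with a MEK inhibitor at 2 μM and a GSK inhibitor at 12 μM in medium with LIF, and the partial iPS cells were EOS3F-24 without this treatment. The full iPS cells were the lines EOS3F-28 and EOS3F-29, the ES cells were the J1 line, and the MEFs were embryonic fibroblasts of CD1 mice at low passage. All 3 iPS lines are clones made from CD1 MEFs with the retroviruses pMX-Oct4, pMX-Klf4 and pMX-Sox2, and were held in puromycin at 1 μg/mL; feeder cells and LIF supported J1 cells and the iPS lines, and the MEFs grew without them. J1 comes from another mouse strain than CD1, so in comparisons with J1 cells the strain and the cell line cannot be told apart. Puromycin is listed for the iPS lines and converted cells only. When these are compared with J1 cells, the retroviruses and puromycin cannot be told apart from strain and line either. When they are compared with MEFs, the retroviruses, puromycin, feeder cells and LIF cannot be told apart from the cell type. Full iPS values below are the mean of both lines, so they describe 2 clones, and the partial and converted values describe 1.

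A ribosome joins a small subunit, which decodes the mRNA, to a large subunit, which makes the peptide bond, with a stalk on the large subunit that recruits translation factors. Its proteins are needed in near-equal amounts, and their mRNAs begin with a run of pyrimidines (a TOP sequence) through which TOR signalling sets how much of each mRNA is translated. That control acts on translation, so it is not read by arrays, which measure mRNA. A few ribosomal proteins have a second gene copy that is used in some tissues, such as Rpl10l, a copy of the X-linked gene Rpl10 that mouse male germ cells use while the X chromosome is silent.

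Promoter sequence was available for 48 of the 60 genes, as 57 start sites in the RefSeq table (mouse build GRCm38.p6). A run of at least 6 pyrimidines lay within 25 bases either side of the start in 57.9% of these, against 43.9% of all 32851 promoters in the table. CTTTC lay in the same window in 21.1% against 6.75%, and CTTCC in 24.6% against 10.6%; both were read on the transcribed strand, and either can lie inside a pyrimidine run. ACTTCCG, which contains CTTCC, was searched on both strands over all 300 bases and was found in 29.8% against 6.42%. AAGATGG, searched in the same way, was found in 8.77% against 6.34%, and TATAAA in the 40 bases before the start, on the transcribed strand, in 0 of 57 against 2.31%. These matches describe letters only.

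Windows of 60 bases are shown for the genes on which the results turn, 45 bases before the start and 15 from it, so that base 46 is the first transcribed one. Capitals mark pyrimidine runs of at least 6. Rps4x (chrX:102189377-102189436, minus strand), Rpl27 (chr11:101442200-101442259, plus strand) and Rpl12 (chr2:32961667-32961726, plus strand) were among the genes higher after 2i conversion. Rpl10l (chr12:66284387-66284446, minus strand) was higher in converted, full iPS and J1 cells than in partial cells and MEFs. Rps3a1 (chr3:86142654-86142713, minus strand), Rpl26 (chr11:68901521-68901580, plus strand) and Rpl13 (chr8:123102305-123102364, plus strand) were lower in full iPS cells than in J1 cells. Rps18 (chr17:33955651-33955710, minus strand) is a gene whose probe sets gave both directions.
Rps4x: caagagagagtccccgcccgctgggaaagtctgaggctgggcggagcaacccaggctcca
Rpl27: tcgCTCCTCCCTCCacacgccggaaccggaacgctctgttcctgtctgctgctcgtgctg
Rpl12: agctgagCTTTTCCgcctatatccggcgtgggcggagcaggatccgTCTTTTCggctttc
Rpl10l: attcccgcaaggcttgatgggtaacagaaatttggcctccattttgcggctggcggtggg
Rps3a1: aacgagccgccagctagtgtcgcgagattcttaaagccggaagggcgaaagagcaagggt
Rpl26: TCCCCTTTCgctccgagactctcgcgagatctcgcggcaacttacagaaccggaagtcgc
Rpl13: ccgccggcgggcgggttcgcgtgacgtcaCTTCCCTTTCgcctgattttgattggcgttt
Rps18: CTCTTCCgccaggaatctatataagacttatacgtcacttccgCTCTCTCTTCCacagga

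The windows of Rps4x, Rpl10l and Rps3a1 hold no such run, and those of Rpl12 and Rps18 hold 2 each. The second run of Rps18 spans the start, and that of Rpl12 begins 1 base after it. The starts are those annotated and were not checked here, so a missing run does not show that an mRNA lacks a TOP sequence. Rps4l and Rpl29 have no entry.

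All values are log2 array values made by the authors with RMA, and differences are differences of group means on that scale, where 1 unit is a 2-fold change. A value after ± is the standard error (SE) of a difference. Values of different genes are not set against each other, since probe sets differ in brightness. A gene was called when its limma p, adjusted over all 19937 genes by the Benjamini-Hochberg method, was under 0.05. Since no label states that the 3 arrays of a group came from different cultures, the p-values cover the array-to-array spread alone, and it may be technical.

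Array medians lay between 3.92 and 4.11, and replicates correlated over probe sets at 0.971 to 0.987. The mean of 8 pluripotency markers stood at 9.11 to 9.43 in converted cells, 8.27 to 8.82 in the 6 full iPS arrays and 9.12 to 9.45 in J1 cells, at 5.33 to 5.99 in partial cells and at 3.44 to 3.56 in MEFs. Of these 8, 7 were called lower in partial than in full iPS and J1 cells. Pou5f1 went the other way, by 1.36 ± 0.14 against full iPS cells (adjusted p = 1.47e-06) and 1.43 ± 0.16 against J1 cells (adjusted p = 3.78e-06). The mean of 9 measured fibroblast markers stood at 5.85 to 8.37 in the feeder-grown groups and at 9.07 to 9.38 in MEFs. In each feeder-grown group it was highest on replicate 1, which is therefore also left out below. Macrophage markers averaged 3.70 to 4.34 and endothelial markers 3.26 to 4.38, and no marker is listed at 0, the lowest value of any probe set being 0.678. Of the 4 endothelial markers, Tek was higher in partial cells than in MEFs (2.73 ± 0.17, adjusted p = 2.49e-09), and the other 3 were not called there. These are bulk samples, in which fewer cells of a type and less RNA per cell cannot be told apart.

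How far each gene varied between groups was read from its group means. The range of a gene's 6 group means had a median of 0.51 over the 60 genes, against 0.43 over all genes and 0.58 over 38 other genes with a mean of at least 10. The 38 were chosen by brightness alone with only the 60 genes left out, so other ribosomal or translation genes may be among them. The 60 genes are not matched to those 38 in brightness, since 10 of the 60 have a mean under 6 and 19 a mean of 6 to 9. The range was under 0.5 in 28 genes and over 1 in 8. Those 8 were Rps4l (2.69), Rps3a1 (2.04), Rpl10l (1.37), Rps4x (1.12), Rpl27 (1.11), Rpl7 (1.07), Rps21 (1.03) and Rpl36a (1.02). The highest group mean belonged to converted cells in 27 genes and to J1 cells in 20, and the lowest to MEFs in 18, to partial cells in 16 and to EOS3F-29 in 13.

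Arrays of a group also differed in the level of the whole set. The genes' median deviation from each gene's own mean was 0.09, 0.26 and 0.07 on the converted arrays, -0.22, -0.16 and 0.06 on the partial arrays, 0.33, -0.07 and 0.11 on the J1 arrays and -0.10, -0.06 and -0.21 on the MEF arrays. The 6 full iPS arrays lay between -0.11 and 0.04. The same deviation for the 38 other bright genes ran with it: the lowest array was again partial replicate 1 (-0.25) and the highest again J1 replicate 1 (0.19). Both sets thus had their lowest and highest values on the same arrays.

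**Figure D1:**
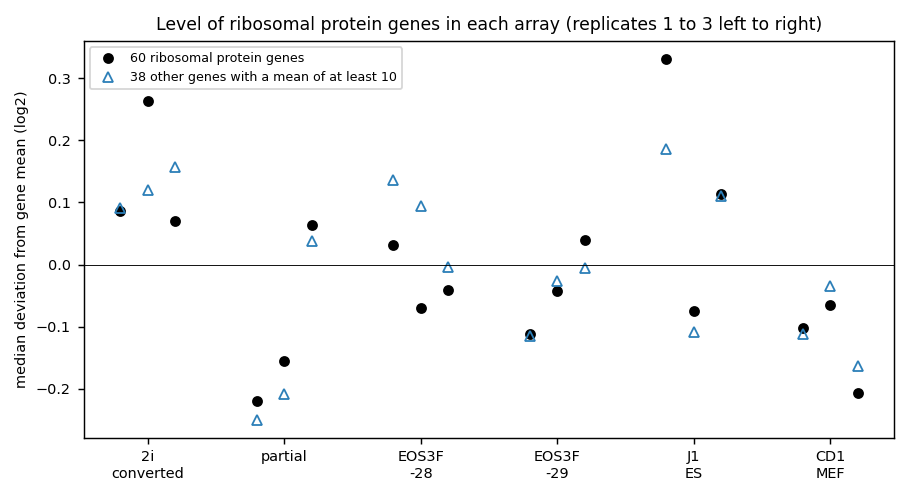
Median deviation, in log2 units, of 60 ribosomal protein genes (filled circles) and 38 other genes with a mean of at least 10 (open triangles) from each gene's mean over all arrays, for each of the 18 arrays by group, replicates 1 to 3 from left to right. Both sets are lowest on partial replicate 1, at -0.22 and -0.25, and highest on J1 replicate 1, at 0.33 and 0.19.

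What 2i culture changed was asked first, since the partial line before and after conversion gave the largest share of ribosomal protein genes called. Of the 60 genes, 21 (35%) were called between converted and partial cells, against 22.4% of all genes. Higher in converted cells were 19 genes (31.7%), against 9.36% of all genes, and lower were 2 (3.33%), against 13%. By subunit, 14 of 35 large subunit genes and 5 of 22 small subunit genes rose, 1 of each fell, and no stalk gene was called. Of the 31 genes with a mean of at least 9, 11 rose and 0 fell. The median difference was 0.26, against 0.00 over all genes and 0.30 over the 38 other bright genes. The direction of the set depends on the scale: centred on those bright genes, 9 members were higher and 7 lower with a median of -0.00094, and after cyclic loess 11 were higher and 3 lower with a median of 0.070. Without replicate 1 of the feeder-grown groups, 14 were higher and 3 lower. Centring on the bright genes took the median over all genes to -0.26, and the 38 may hold further ribosomal or translation genes. The level of the other bright genes moved with these counts, and its part in them was not tested.

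Rps4x, the X-linked gene of small subunit protein S4, read 9.25, 9.92 and 9.87 in converted cells, against 8.47, 8.61 and 9.08 in partial cells. All converted arrays lay above all partial arrays, and the other groups lay between 8.46 and 9.39, J1 replicate 1 being the top of these. The difference was 0.96 ± 0.19 (adjusted p = 0.00106), and the 3 further probe sets of the gene stood at 0.70 to 0.90. Rpl12, whose protein sits at the base of the stalk, read 6.17, 6.77 and 6.22 in converted cells, against 5.40, 5.67 and 5.38 in partial cells, with no overlap, and rose by 0.90 ± 0.15 (adjusted p = 0.000312). Rpl7, of the large subunit, read 9.77, 10.23 and 10.32 in converted cells, against 8.95, 9.33 and 9.72 in partial cells. It rose by 0.78 ± 0.19 (adjusted p = 0.00592), and the highest partial array lay just below the lowest converted one. Rpl27, also of the large subunit, was at 8.76, 9.24 and 9.15 in converted cells and 8.32, 8.18 and 8.47 in partial cells, a rise of 0.73 ± 0.12 (adjusted p = 0.000163). Among the other genes that rose were Rpl36a (0.71), Rpl9 (0.68), Rpl8 (0.66), Rpl23 (0.57) and Rpl41 (0.53), and the smallest called rise was in Rpl4, at 0.36. A probe set of Rpl9 with a mean of 8.47 went the other way, at -0.40, and the others of this gene stood at 0.05 to 0.68.

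Lower after conversion were Rpl29, of the large subunit, and Rps21, of the small subunit. Rpl29 read 4.52, 4.29 and 4.61 in converted cells, against 5.30, 5.60 and 5.43 in partial cells, where it was highest of all groups, and fell by 0.97 ± 0.15 (adjusted p = 0.000144). Its probe set read 5.60 or less on all 18 arrays. Rps21 read 7.87, 7.39 and 6.80 in converted cells, against 8.19, 8.21 and 8.02 in partial cells, with a difference of -0.79 ± 0.23 (adjusted p = 0.0199). The converted arrays of Rps21 were spread over more than 1 unit, and without converted replicate 3 its difference was -0.51 (adjusted p = 0.138).

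**Figure D2:**
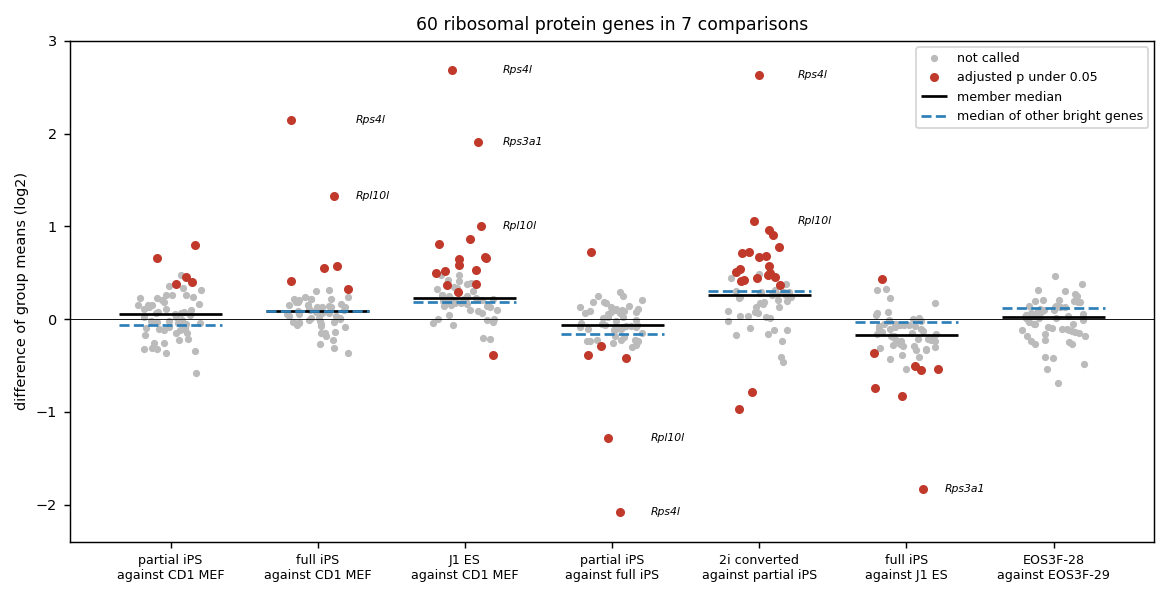
Difference of group means, in log2 units, of each of the 60 ribosomal protein genes (points, red where the adjusted p was under 0.05) in 7 comparisons, with the median of the 60 genes (black line) and of 38 other bright genes (dashed line). Single genes past 1 unit are named. The median of the 60 genes lies within 0.2 of that of the other bright genes in each comparison, and Rps4l and Rpl10l stand apart in 4 of them.

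A pair of gene copies, Rps4l and Rpl10l, set the converted, full iPS and J1 cells apart from the partial cells and MEFs. Rps4l, a copy of Rps4x, read 8.001, 7.92 and 7.90 in converted cells, against 5.59, 4.95 and 5.38 in partial cells. In EOS3F-28 it read 7.28, 6.75 and 7.10, in EOS3F-29 7.88, 7.48 and 7.85, in J1 cells 8.56, 7.24 and 7.98, and in MEFs 5.33, 5.19 and 5.22. The 12 arrays of converted, full iPS and J1 cells thus all lay at 6.75 or above, and the 6 arrays of partial cells and MEFs all lay at 5.59 or below. Converted cells exceeded partial cells by 2.63 ± 0.24 (adjusted p = 3.11e-07), full iPS cells exceeded MEFs by 2.15 ± 0.21 (adjusted p = 3.87e-07) and J1 cells exceeded MEFs by 2.68 ± 0.24 (adjusted p = 1.6e-07). Partial cells were lower than full iPS cells by -2.09 ± 0.21 (adjusted p = 1.07e-06) and stood 0.06 from MEFs (adjusted p = 0.898). Converted cells and J1 cells stood 0.01 apart (adjusted p = 0.997). These comparisons share arrays and are given side by side.

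A second probe set of Rps4l moved in the same way, by 2.42 in converted against partial cells, 1.71 in full iPS cells against MEFs, 1.98 in J1 cells against MEFs and -1.94 in partial against full iPS cells. Rps4x itself was not called in the comparisons with full iPS cells: it stood at -0.05 in full iPS cells against MEFs (adjusted p = 0.859) and 0.11 in partial against full iPS cells (adjusted p = 0.744). How many probes of the Rps4l sets also match Rps4x is not given in the sources used here.

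Rpl10l read 6.02, 6.04 and 5.77 in converted cells, against 5.02, 4.62 and 5.02 in partial cells. It read 5.77, 6.62 and 6.002 in EOS3F-28, 6.01, 6.69 and 5.93 in EOS3F-29, 5.85, 5.73 and 5.97 in J1 cells and 5.06, 4.36 and 5.12 in MEFs. As with Rps4l, every converted, full iPS and J1 array lay above every partial and MEF array, with 5.73 the lowest of the first and 5.12 the highest of the second. The differences were 1.05 ± 0.23 in converted against partial cells (adjusted p = 0.00279), 1.33 ± 0.20 in full iPS cells against MEFs (adjusted p = 5.36e-05), 1.00 ± 0.23 in J1 cells against MEFs (adjusted p = 0.00212) and -1.28 ± 0.20 in partial against full iPS cells (adjusted p = 0.00017). Between partial cells and MEFs it was 0.04 (adjusted p = 0.926). Each of these 8 calls of Rps4l and Rpl10l was kept under every alternative run. The parent gene Rpl10, which encodes a protein near the peptidyl transferase centre, was not called in any of the 9 comparisons in the fit of all 18 arrays. Its largest differences were -0.32 in partial cells against MEFs (adjusted p = 0.0688) and -0.32 in partial against J1 cells (adjusted p = 0.0654). Some alternatives did call Rpl10. It was lower in partial cells than in MEFs with cyclic loess (-0.34, adjusted p = 0.0135), and than in full iPS cells with housekeeping centring (-0.50, adjusted p = 0.00688). Without partial replicate 3 it was called against MEFs (adjusted p = 0.0172), full iPS cells (adjusted p = 0.0273) and converted cells (adjusted p = 0.0298).

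**Figure D3:**
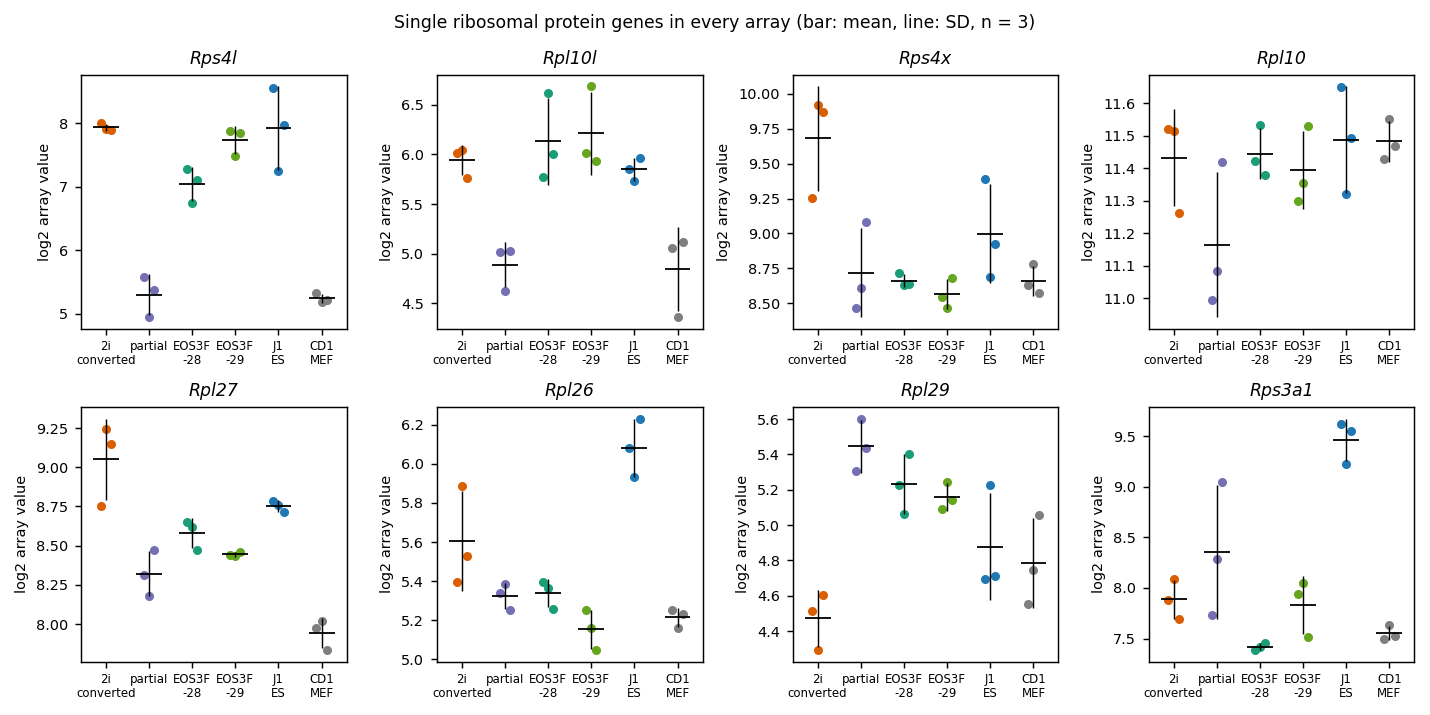
Log2 array values of 8 ribosomal protein genes on each array (points), with the mean (bar) and SD (line) of each group of 3, for converted, partial, EOS3F-28, EOS3F-29, J1 and MEF groups from left to right; the vertical axes differ between genes. Rps4l lies at 6.75 or above in the 4 groups other than partial cells and MEFs and at 5.59 or below in those, and Rps3a1 is highest in J1 cells.

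How far reprogrammed cells and ES cells had moved from fibroblasts was read from the comparisons with MEFs, which share the 3 MEF arrays. In partial cells 5 genes (8.33%) were called against MEFs, all higher, against 23.7% of all genes called, 13.7% higher and 10% lower. In full iPS cells 6 genes (10%) were called, all higher, against 35% of all genes called, 17.1% higher and 17.8% lower. In J1 cells 16 genes (26.7%) were called, 15 higher (25%) and 1 lower (1.67%), against 38% of all genes called, 20.6% higher and 17.5% lower. The median difference from MEFs was 0.05 in partial cells, 0.09 in full iPS cells and 0.22 in J1 cells, beside -0.06, 0.09 and 0.18 for the 38 other bright genes. None of the 31 genes with a mean of at least 9 was called in partial or full iPS cells, and in J1 cells 6 of them were higher and 1 was lower. Housekeeping centring raised the counts to 40 higher in full iPS cells and 48 higher in J1 cells, while cyclic loess turned the partial count to 2 higher and 6 lower. Housekeeping centring also moved the median over all genes, to 0.34 in full iPS cells and 0.36 in J1 cells. The share of all genes called at that setting is not given here, so these counts are no result about ribosomal protein genes. Of the 9 housekeeping genes measured, 4 were themselves called lower and 1 higher in full iPS cells, and 4 lower and 2 higher in J1 cells. Of 9 fibroblast markers, 7 were called lower in each of the 3 kinds of cells. Twist2 was lower without a call. Lum stood higher without a call, at 0.66 in partial, 0.87 in full iPS and 0.50 in J1 cells. The part of fibroblast RNA in the differences of ribosomal protein genes was not tested. Leaving out replicate 1 of the feeder-grown groups gave 9 higher and 1 lower in partial cells, and the share of all genes at that setting is not given here either.

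Rpl27 was higher than in MEFs in each of the 3 comparisons. The J1 arrays stood at 8.79, 8.76 and 8.71, the full iPS arrays between 8.43 and 8.65 and the partial arrays between 8.18 and 8.47, against 7.98, 8.02 and 7.84 in MEFs, which formed the lowest group without overlap. The differences were 0.81 ± 0.12 in J1 cells (adjusted p = 2.75e-05), 0.57 ± 0.10 in full iPS cells (adjusted p = 0.000232) and 0.38 ± 0.12 in partial cells (adjusted p = 0.0236). With all probe sets of the gene averaged, the full iPS difference was 0.24 (adjusted p = 0.0822) and the partial one 0.28 (adjusted p = 0.108). The partial call was also lost with cyclic loess, with the trended robust fit, and without partial replicate 1 (adjusted p = 0.0501), partial replicate 3 (adjusted p = 0.121) or MEF replicate 3 (adjusted p = 0.0978).

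Further genes above MEFs in full iPS cells were Rpl7l1, a nucleolar relative of Rpl7 (0.55 ± 0.17, adjusted p = 0.0147), Rpl29 (0.41 ± 0.13, adjusted p = 0.0228) and Rpl22 (0.32 ± 0.12, adjusted p = 0.0396). In partial cells they were Rps3a1 (0.80 ± 0.23, adjusted p = 0.0151), Rpl29 (0.66 ± 0.15, adjusted p = 0.00392), Rpl22 (0.46 ± 0.13, adjusted p = 0.0183) and Rps13 (0.40 ± 0.14, adjusted p = 0.0417). The partial call of Rps3a1 was lost without partial replicate 3 (0.45, adjusted p = 0.0985), without MEF replicate 1 (0.77, adjusted p = 0.0502) and in a fit of only the arrays compared (0.80, adjusted p = 0.0567). Rpl22, Rps13, Rpl29 in full iPS cells and Rpl7l1 each lost the call when some single arrays were left out. Centred on the bright genes, Rpl29 (0.29, adjusted p = 0.229) and Rpl22 (0.20, adjusted p = 0.307) were not called in full iPS cells. In partial cells cyclic loess ended the calls of Rps13 (adjusted p = 0.157) and Rpl22 (adjusted p = 0.121). The mean of probe sets also ended that of Rps13 (adjusted p = 0.185).

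J1 cells showed the widest set of rises over MEFs. Beside Rps4l, Rpl10l and Rpl27 these were led by Rps3a1 (1.91) and Rpl26 (0.87 ± 0.12, adjusted p = 1.47e-05). The Rps3a1 value is a description, since its low level in iPS against J1 cells was known beforehand, though the count includes it. Another 10 genes, from Rpl12 (0.67) to Rpl28 (0.29), rose by less. The one lower gene was Rps18, of the head of the small subunit, which read 11.35, 10.89 and 11.18 in J1 cells, against 11.43, 11.66 and 11.49 in MEFs (-0.39 ± 0.14, adjusted p = 0.0322). That sign depends on the probe set: the 7 probe sets of Rps18 ranged from -0.39 to 1.30, and their mean gave 0.34 (adjusted p = 0.0334).

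Partial and full iPS cells were then compared directly. Of the 60 genes, 6 (10%) were called, 1 higher in partial cells (1.67%) and 5 lower (8.33%), against 18.6% of all genes called, 12.8% higher and 5.78% lower. The median difference was -0.06, against 0.01 over all genes and -0.16 over the 38 other bright genes. Rps4l and Rpl10l, given above, carried the differences past 1 unit. Rps18 (-0.41 ± 0.12, adjusted p = 0.0187), Rpl9 (-0.38 ± 0.12, adjusted p = 0.0316) and Rpl30 (-0.29 ± 0.10, adjusted p = 0.0462) were also lower, and each lost its call when the bright genes were used for centring or partial replicate 1 was left out. Rps3a1 stood higher in partial cells, by 0.73, and by 0.38 without partial replicate 3. Its low level in iPS against J1 cells was known beforehand, so this value is a description, though the count includes it. Centring on housekeeping genes gave 1 higher and 24 lower, and centring on the bright genes gave 3 higher and 2 lower. The median over all genes moved with these scalings as well, to -0.24 and 0.16.

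Against J1 cells the full iPS lines had 8 genes called (13.3%), 1 higher (1.67%) and 7 lower (11.7%), against 4.76% of all genes called, 1.29% higher and 3.47% lower. In all, 50 of the 60 differences were below 0, and their median was -0.17, against -0.02 over all genes and -0.04 over the 38 other bright genes. That median was -0.30 without J1 replicate 2 and -0.068 without J1 replicate 1. With housekeeping centring 0 were higher and 5 lower. Without replicate 1 of the feeder-grown groups 1 was higher and 3 were lower.

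Rps3a1, of the small subunit, was known beforehand to be low in iPS against J1 cells, so its differences from J1 cells are given as a description, with no test, although the counts of calls against J1 cells include it. It read 7.39, 7.42 and 7.45 in EOS3F-28 and 7.94, 8.05 and 7.51 in EOS3F-29, against 9.62, 9.23 and 9.55 in J1 cells, a difference of -1.84. The converted cells read 7.88, 8.09 and 7.70, with a difference from J1 cells of -1.58. Partial cells read 7.73, 8.28 and 9.04, with a difference of -1.11, and the MEFs read 7.50, 7.63 and 7.53. No array of any other group reached the J1 arrays, and the partial arrays were the most spread, over 1.3 units. All groups but J1 descend from CD1 mice.

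The probe set behind these values, 10407120, is listed for Rps3a1 alone but cites 1 transcript, which is not the RefSeq one. A pair of other probe sets, 10421908 and 10499121, is listed for Rps3a1 together with Tapbp and cannot be assigned to 1 gene. On the first of these the full iPS arrays differed from J1 cells by -0.78, the partial arrays by -0.74 and the converted arrays by -0.23. On the second the differences were -0.44, -0.37 and -0.08. The differences were thus smaller on both of these probe sets than on the one listed for Rps3a1 alone.

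**Figure D4:**
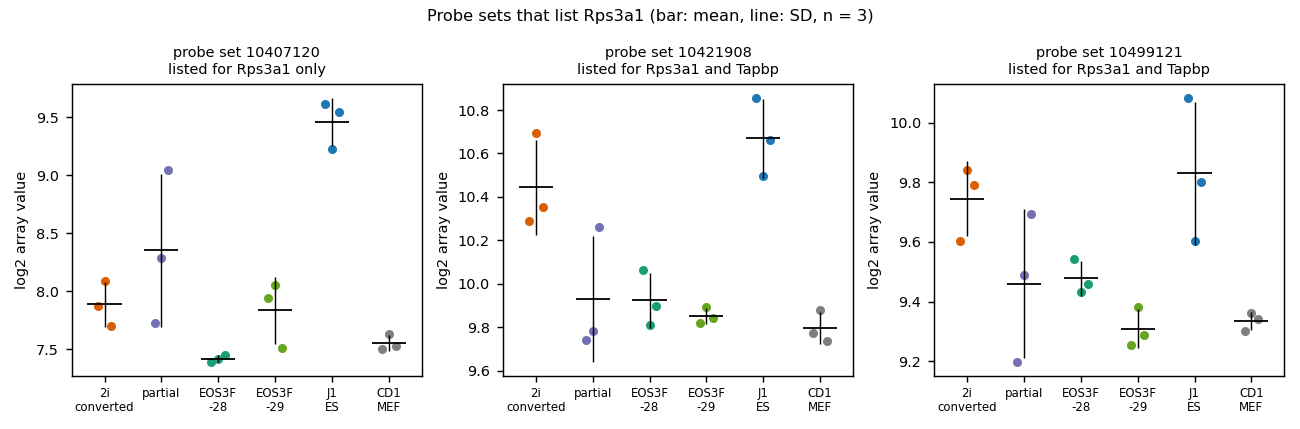
Log2 array values of the 3 probe sets that list Rps3a1 on each array (points), with the mean (bar) and SD (line) of each group of 3, for converted, partial, EOS3F-28, EOS3F-29, J1 and MEF groups from left to right; the vertical axes differ. The converted minus J1 difference is -1.58 on the first probe set and -0.23 and -0.08 on the others.

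Rpl26, a large subunit protein at the exit of the peptide tunnel, was the next most lowered gene. It read 5.40, 5.36 and 5.26 in EOS3F-28 and 5.25, 5.16 and 5.05 in EOS3F-29, against 6.08, 5.93 and 6.23 in J1 cells, with no overlap (-0.83 ± 0.10, adjusted p = 0.000105). It was lower than in J1 cells also in partial cells (-0.76 ± 0.12, adjusted p = 0.000115) and in converted cells (-0.48 ± 0.12, adjusted p = 0.0462), which share the J1 arrays. Rpl13, of the large subunit, read 9.43 to 9.69 over the 6 full iPS arrays, against 10.53, 10.05 and 10.29 in J1 cells (-0.75 ± 0.14, adjusted p = 0.0035), and its second probe set stood at -0.84. Without replicate 1 of the feeder-grown groups the call of Rpl13 was lost (-0.61, adjusted p = 0.062). Rps20 (-0.54 ± 0.12, adjusted p = 0.0141), Rpl12 (-0.54 ± 0.13, adjusted p = 0.0256), Rpl38 (-0.50 ± 0.09, adjusted p = 0.00246) and Rpl36 (-0.37 ± 0.10, adjusted p = 0.0494) were lower too. Leaving out J1 replicate 3, among other arrays, ended the calls of Rps20 (adjusted p = 0.11) and Rpl12 (adjusted p = 0.0987). Rps18 was the one gene called higher (0.43 ± 0.12, adjusted p = 0.0422), and its 7 probe sets ranged from -0.96 to 0.44. That call was lost on leaving out 6 of 9 single arrays, with housekeeping centring (adjusted p = 0.0726), with the trended robust fit (adjusted p = 0.0597) and in a fit of only the arrays compared (adjusted p = 0.0907).

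Partial cells had 15 genes called against J1 cells (25%), 1 higher (1.67%) and 14 lower (23.3%), against 22.9% of all genes called, 13.3% higher and 9.65% lower. The higher one was Rpl29 (0.57 ± 0.15, adjusted p = 0.0114). After 2i conversion 5 genes were called against J1 cells (8.33%), all lower, against 1.72% of all genes called, 1.06% higher and 0.652% lower. They were Rps3a1, Rpl38 (-0.59 ± 0.10, adjusted p = 0.00449), Rps21 (-0.96 ± 0.23, adjusted p = 0.045), Rpl26 and Rpl19 (-0.47 ± 0.11, adjusted p = 0.0462). The median difference from J1 cells was -0.25 in partial and 0.05 in converted cells, beside -0.22 and 0.08 for the 38 other bright genes. The sign of the converted median depends on the scale: it was -0.049 with cyclic loess, -0.14 with housekeeping centring and -0.015 with centring on the bright genes. The partial median was -0.19, -0.49 and -0.043 under the same settings.

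Several probe sets for 1 gene gave a check on these values. Probe sets with a mean of at least 5 numbered more than 1 for 35 genes, and the spread of their differences had a median of 0.31 in J1 cells against MEFs and 0.28 in full iPS cells against MEFs. It passed 1 unit in 5 genes in the J1 comparison (Rpl13, Rpl24, Rps13, Rps18 and Rps25) and in 1 gene, Rpl13, in the full iPS one. The widest was in Rps13, where another probe set stood at -1.99 in J1 cells against MEFs while the brightest stood at 0.50. It stood at 2.07 in full iPS against J1 cells, while the brightest stood at -0.20. Among called genes with several probe sets, 3 of 11 in J1 cells against MEFs, 2 of 3 in partial against full iPS cells, 2 of 12 in converted against partial cells, 1 of 4 in full iPS against J1 cells, 5 of 8 in partial against J1 cells and 1 of 3 in converted against J1 cells had one that went the other way. The 5 in partial against J1 cells were Rpl27, Rpl28, Rpl38, Rpl9 and Rps6, and the 2 in converted against partial cells were Rpl13 and Rpl9.

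Between EOS3F-28 and EOS3F-29 no ribosomal protein gene was called by limma, against 0.532% of all genes (0.301% higher and 0.231% lower). The median difference was 0.02, and the widest was in Rps4l, at -0.69 ± 0.24 (adjusted p = 0.267).

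The stalk genes were called in none of the 9 comparisons in the fit of all 18 arrays. Some alternatives called them, for example in J1 cells against MEFs. There Rplp0 was lower with cyclic loess (-0.41, adjusted p = 0.00126) and with centring on the bright genes (-0.38, adjusted p = 0.0162). With housekeeping centring Rplp1 (0.40, adjusted p = 0.0296) and Rplp2 (0.56, adjusted p = 0.0284) were higher there. Rplp0, the anchor of the stalk, read 11.32, 11.31 and 11.11 in converted cells, against 11.01, 11.01 and 11.24 in partial cells (0.16 ± 0.11, adjusted p = 0.372). Rplp1 differed by 0.22 ± 0.15 (adjusted p = 0.375) and Rplp2 by 0.49 ± 0.22 (adjusted p = 0.131) in the same comparison. Of the remaining copies, Rpl3l, a heart and skeletal muscle form, lay between 3.31 and 3.63 on all 18 arrays, and Rpl39l, a testis form, between 2.94 and 4.25. Rps27l, a p53 target, ranged from 6.10 to 7.73, and converted replicate 3 was the lowest. None of these 3 was called in any comparison in that fit. Some alternatives called them. Rpl39l was lower in partial cells than in MEFs with cyclic loess (-0.64, adjusted p = 0.0427) and in a fit of only the arrays compared (-0.58, adjusted p = 0.021). With housekeeping centring Rpl3l (0.48, adjusted p = 0.00497) and Rps27l (0.72, adjusted p = 0.0139) were higher in J1 cells than in MEFs. The partners of these 3, Rpl3, Rpl39 and Rps27, and Rpl22l1, the partner of Rpl22, are among 17 ribosomal protein genes found only on probe sets listed for several genes. They are not analysed here.

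Other genes of the ribosome and its synthesis were read from lists. Of all genes, 13.7% were called higher than in MEFs in partial cells, 17.1% in full iPS cells and 20.6% in J1 cells. The shares called lower were 10%, 17.8% and 17.5%. Between converted and partial cells 9.36% of all genes were called higher and 13% lower. Of the other ribosome components 2 of 6 were measured, Rpsa and Fau, both of the small subunit, and both were higher in converted than in partial cells (0.63 ± 0.15, adjusted p = 0.00516 for Rpsa, and 0.63 ± 0.16, adjusted p = 0.00807 for Fau); neither was called when the bright genes were used for centring. Of 50 genes of ribosome biogenesis, which transcribe rRNA and assemble the subunits, 34 were higher than in MEFs in partial cells, 36 in full iPS cells and 33 in J1 cells, and 0 were lower in any of them. Their median differences were 0.55, 0.57 and 0.61, beside 0.05, 0.09 and 0.22 for the ribosomal protein genes. The 3 other scalings gave 32 to 36, 29 to 45 and 30 to 43 higher, with 2 lower in J1 cells under centring on the bright genes and 0 lower otherwise. Nop10, of the particle that modifies rRNA uridines, rose most in partial cells (1.20 ± 0.16, adjusted p = 2.18e-05), Polr1b, a subunit of RNA polymerase I, in full iPS cells (1.29 ± 0.19, adjusted p = 3.56e-05) and Rrp1b in J1 cells (1.36 ± 0.18, adjusted p = 1.51e-05). After conversion 13 were higher than in partial cells and 0 lower, led by Gnl3, a nucleolar GTPase (0.95 ± 0.15, adjusted p = 0.000158), and Rrn3, an initiation factor of RNA polymerase I (0.81 ± 0.13, adjusted p = 0.000118). Centring on the bright genes made that 4 higher and 5 lower.

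Genes of the mitochondrial ribosome, 77 in all, were higher than in MEFs in 37 cases in partial cells (0 lower), in 30 in full iPS cells (3 lower) and in 33 in J1 cells (2 lower). Housekeeping centring gave 53 higher and 1 lower in full iPS cells and 57 higher and 0 lower in J1 cells, and centring on the bright genes gave 21 higher and 6 lower and 20 higher and 4 lower. Mrpl45 was among the 2 largest rises in each, at 1.23 ± 0.17 in partial cells, 0.98 ± 0.15 in full iPS cells and 1.43 ± 0.17 in J1 cells. Converted cells had 9 of the 77 higher and 6 lower than partial cells, against 9.36% and 13% of all genes, so the rises were near the share of all genes. Mrps31 stood at 1.27 ± 0.12 (adjusted p = 3.23e-07) and Mrps21 at -0.93 ± 0.21 (adjusted p = 0.00355). Centred on the bright genes, 1 was higher and 23 were lower, with the median over all genes at -0.26. Partial cells had 15 higher and 1 lower than full iPS cells, against 12.8% and 5.78% of all genes. Housekeeping centring turned these counts to 2 higher and 8 lower.

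Of 11 measured translation factors with TOP mRNAs, 4 were higher in converted than in partial cells and 0 lower, against 9.36% and 13% of all genes. Their median was 0.25, beside 0.26 for the ribosomal protein genes. The largest rises were in Eif3e, a subunit of an initiation factor (0.58 ± 0.14, adjusted p = 0.00598), and Eef2, the factor that moves the ribosome along (0.42 ± 0.14, adjusted p = 0.0338). Cyclic loess left 1 of these 4 calls and centring on the bright genes 0. In partial cells Eef1a1, which delivers aminoacyl tRNAs, was lower than in MEFs (-0.45 ± 0.12, adjusted p = 0.0106) and than in full iPS cells (-0.44 ± 0.10, adjusted p = 0.00574). With housekeeping centring 0 of the 11 were called lower than in MEFs, and with cyclic loess or centring on the bright genes 0 were called lower than in full iPS cells, so these calls depend on the scale. Of 11 measured genes that link TOR signalling to translation, 1 rose and 2 fell on conversion, near the 9.36% and 13% of all genes. The one that rose was Eif4ebp1, a repressor of cap-dependent initiation that TOR inactivates (0.99 ± 0.12, adjusted p = 7.06e-06), and it was lower in partial cells than in MEFs (-0.73 ± 0.12, adjusted p = 0.000157). Rptor (-0.44 ± 0.11, adjusted p = 0.0054) and Rps6kb2 (-0.35 ± 0.10, adjusted p = 0.0184) fell.

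**Figure D5:**
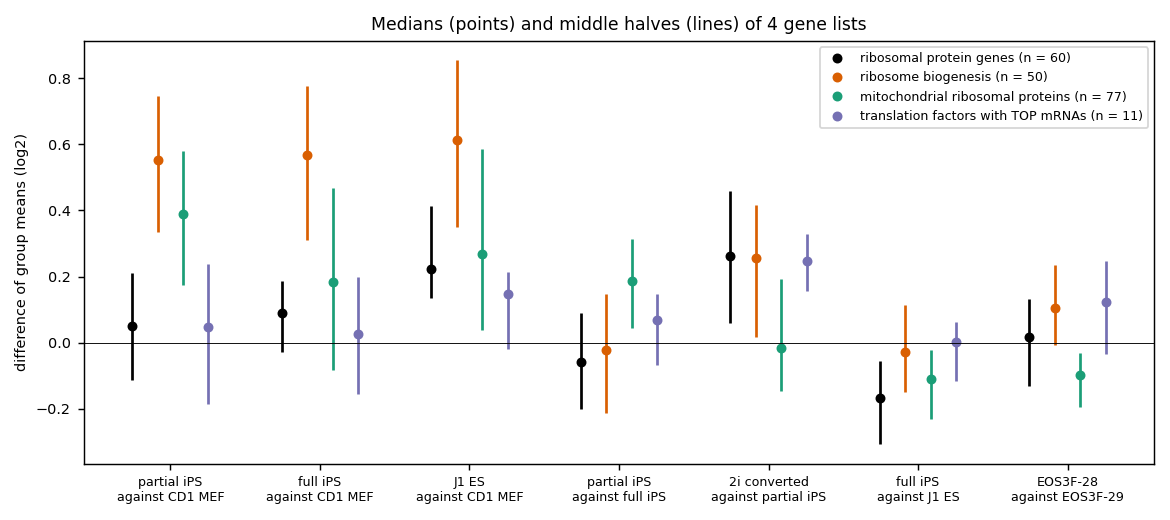
Median (point) and middle part from the lower to the upper quartile (line) of the differences of group means, in log2 units, for 60 ribosomal protein genes, 50 ribosome biogenesis genes, 77 mitochondrial ribosomal protein genes and 11 translation factor genes with TOP mRNAs in 7 comparisons. Against MEFs the medians of ribosome biogenesis genes are 0.55, 0.57 and 0.61 and those of ribosomal protein genes 0.05, 0.09 and 0.22; in converted against partial cells both are near 0.26, and both are near 0 when centred on other bright genes.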

How the data were processed

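Labelled RNA of 18 samples was measured on 1-colour arrays with biotin label. The deposited values are log2 values per probe set, made by the authors with RMA per the submitters' processing notes; no source used here gives the RMA version or the annotation build. Quantile scaling within RMA takes out shifts that most genes share, and differences near background are compressed. The number of arrays limits the precision.

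Of 34760 probe sets, the platform annotation gave 1 symbol for 21640 and several for 1321, and 11799 were unlisted. Each of 19937 genes was read through its probe set with the highest mean. The 60 genes lie on 188 probe sets, and 37 have more than 1. All 60 matched the RefSeq gene table by gene ID. Another 207 probe sets list several genes of which at least 1 has a ribosomal protein symbol, and they were left out.

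Group means were estimated jointly from the 18 arrays in limma 3.58.1 under R 4.3.3 (lmFit, contrasts, eBayes), p-values were adjusted by Benjamini-Hochberg over all genes, and the model was tested on simulated data. The members and lists were chosen with earlier results of these data known, so patterns shown before are no independent support. Genes named are, for each comparison, the 5 largest called rises and falls, Rps3a1, the stalk genes, the copies Rpl3l, Rpl7l1, Rpl10l, Rpl22l1, Rpl39l, Rps27l and Rps4l with their partners, and the top 2 called genes per direction in the other lists; others were named after their values were seen. The lists cover other ribosome components, ribosome biogenesis, mitochondrial ribosomal proteins, TOP translation factors, TOR signalling, housekeeping genes and markers of pluripotent, fibroblast, macrophage and endothelial cells.

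Equal replicate numbers were checked by correlating deviations from group means. Every pair exceeded 0.1 for converted against partial cells (0.383, 0.14 and 0.122), EOS3F-28 against EOS3F-29, partial against J1 and converted against J1 cells, so the pairing rests on the values, no label stating it; it did not for the others. Alternatives were cyclic loess, centring on housekeeping genes or on 38 other bright genes, the mean of probe sets, dim genes (mean under 5) left out, a trended robust fit, the replicate block, only the arrays compared, and each array left out.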

Additional observations from a re-analysis of the deposited data

Results flagged for a closer look

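Among 25 named genes examined over the 6 full iPS arrays, 2 had a highest array that stood apart from the rest by more than the limit of Dixon's test for 6 samples, which chance passes in about 1 of 20 groups. Rplp0 read 11.57 on EOS3F-28 replicate 1, where the next array was at 11.32 and the lowest at 11.19 (ratio 0.653). Rps20 read 9.88 on EOS3F-29 replicate 3, where the next was at 9.61 and the lowest at 9.50 (ratio 0.707). Without EOS3F-29 replicate 3 the fall of Rps20 in full iPS against J1 cells remained called.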

How the results depend on the processing

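Over the alternatives for single named genes, 1722 values kept their direction and side of the threshold, 51 gained a call, 94 lost one and 2 reversed. Both reversals were in Rps18 with all its probe sets averaged, at 0.34 in J1 cells against MEFs and -0.11 in full iPS against J1 cells. The count of genes called in partial cells against MEFs was 8 with cyclic loess, 3 with the trended robust fit and 10 without replicate 1 of the feeder-grown groups, an alternative chosen after seeing the data. In full iPS cells against MEFs it was 40 with housekeeping centring and 10 with the mean of probe sets, in J1 cells against MEFs 48 with housekeeping centring, in partial against full iPS cells 25 with housekeeping centring, and in full iPS against J1 cells 5 with housekeeping centring and 4 without replicate 1 of the feeder-grown groups. Median differences with housekeeping centring were 0.39 in full iPS and 0.52 in J1 cells against MEFs, -0.30 in partial against full iPS cells and 0.14 in EOS3F-28 against EOS3F-29. Centred on the bright genes they were 0.057 in J1 cells against MEFs, 0.094 in partial against full iPS cells, -0.00094 in converted against partial cells and -0.11 in EOS3F-28 against EOS3F-29, and cyclic loess gave 0.070 in converted against partial cells. The median of all genes shifted with these scalings, under housekeeping centring to 0.34 in full iPS and 0.36 in J1 cells against MEFs and -0.24 in partial against full iPS cells, and under centring on the bright genes to -0.26 in converted against partial cells, 0.16 in partial against full iPS cells, -0.11 in J1 cells against MEFs and -0.17 in EOS3F-28 against EOS3F-29. Leaving out 1 array at a time gave 3 to 6 calls in partial cells against MEFs (3 without partial replicate 2 or MEF replicate 1 or 3), 3 to 7 in full iPS cells against MEFs (3 without MEF replicate 1), 11 to 27 in J1 cells against MEFs (27 without J1 replicate 2), 3 to 7 in partial against full iPS cells (3 without partial replicate 1 or 2), 12 to 24 in converted against partial cells (12 without converted replicate 2, 13 without partial replicate 1 or 2) and 4 to 7 in full iPS against J1 cells (4 without J1 replicate 3, 5 without EOS3F-29 replicate 3). The median of full iPS against J1 cells ran from -0.30, without J1 replicate 2, to -0.068, without J1 replicate 1. For Rps3a1 against J1 cells, probe set 10499121 gave -0.37 in partial, -0.44 in full iPS and -0.084 in converted cells, and 10421908 gave -0.23 in converted cells. With the replicate block, which the values bear out for 4 pairs of groups, 21 genes were called in converted against partial cells, all of them among the 21 called without it, and no count moved by over 1.5 times; the block called Rps4l in full iPS against J1 cells (-0.54, adjusted p = 0.0247), where the numbers did not pair the arrays. Except where named, the cause of these changes was not tested. Dim probe sets limit what could be seen for 10 genes with a mean under 6.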
